A study of Mus musculus with 8 samples.

Results

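The genes described here write, keep and erase DNA methylation, or reset it in the germ line: the methyltransferases Dnmt1, Dnmt3a and Dnmt3b, the cofactors Dnmt3l and Uhrf1, the oxidases Tet1 and Tet2, the arginine methyltransferase Prmt5, and the germ cell regulators Prdm1 and Prdm14. All probe sets that the array annotation gives to these symbols were taken, which gave 22 probe sets for 10 genes, of 45037 probe sets and 18193 genes in all. The annotation gives none of the 22 to a second gene. Whether their probes also match other transcripts was not checked. Dnmt3a has 5 probe sets, Tet1 has 4, Dnmt1 has 3, Dnmt3b, Uhrf1 and Tet2 have 2 each, and Dnmt3l, Prmt5, Prdm1 and Prdm14 have 1 each. Probe sets of 1 gene share its transcripts and are not separate evidence.

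RNA of mouse fetal gonads at embryonic day 13 was read on 8 Affymetrix Mouse Genome arrays, 2 in each of 4 groups, and all 4 groups carry the strain label C57BL6/J-Tg92. The pre-granulosa group is EGFP-positive cells sorted from XX gonads, about 30000 cells a sample, and the Sertoli group is EGFP-positive cells sorted from XY gonads, about 22000 cells a sample. The ovary and testis groups are whole gonads, 4 pooled per sample, and hold germ cells, supporting cells and every other cell type of the organ. The labels do not name the promoter that drives EGFP, and they speak of separate RNA samples without saying whether these came from separate animals, so the p-values measure only the spread between these samples.

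DNA methylation is copied at each cell division by DNMT1, which UHRF1 brings to newly replicated DNA, and is laid down anew by DNMT3A and DNMT3B, with DNMT3L as a cofactor without catalytic activity of its own. TET enzymes oxidise the methyl group, which leads to its loss through replication or base excision. Germ cells that enter the gonad have erased most of their methylation, and they regain it earlier in the male than in the female. PRDM1 and PRDM14 specify the germ line, and PRMT5 methylates histone and spliceosome arginines and is known as a partner of PRDM1 in germ cells.

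Values are deposited as log2, so that 1 unit is a 2-fold change, and levels of different probe sets are not compared. As a background level, the 9 probe sets of Y-linked genes read 3.11 to 4.78 on the XX arrays, with a median of 3.59. The top of that range comes from 1 Kdm5d probe set, at 4.38 to 4.78, and the others reached at most 4.24. Of the 22 probe sets, 17 read above 4.78 on all 8 arrays, 4 on some, and the Dnmt3l probe set on none. The labelled cell types carried their markers: the mean of 8 Sertoli markers lay at 10.97 to 11.12 in the Sertoli arrays and 6.80 to 7.42 in the pre-granulosa arrays, and that of 7 pre-granulosa markers at 5.77 to 5.99 and 9.92 to 10.41. Sox9 read 11.53 and 11.95 in Sertoli cells and 9.46 and 10.56 in pre-granulosa cells, and Foxl2 read 5.19 and 5.43 against 8.99 and 9.65. With array medians taken off, pre-granulosa minus ovary was positive for 7 of the 8 Sertoli markers (median 1.35). It was positive for 5 of the 7 pre-granulosa markers (median 0.63). The part of XY-type or other cells in the sorted XX samples was not tested. The mean of 11 germ cell markers was 4.58 to 4.79 in pre-granulosa, 4.61 to 5.28 in Sertoli, 10.3 in both ovary and 9.86 to 9.94 in testis arrays. Over the 22 probe sets, replicates differed most in pre-granulosa cells (root mean square standard deviation 0.68), then Sertoli cells (0.46), ovaries (0.34) and testes (0.23). Pre-granulosa replicate 1 showed the highest 3′ minus 5′ difference (3.08 log2 units for actin and 3.68 for Gapdh, against 1.70 and 1.24 in replicate 2), a sign of shorter labelled cDNA.

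A difference is called where limma's moderated test, adjusted by Benjamini and Hochberg over all probe sets, gave an adjusted p of 0.01 or less. Errors after ± are standard errors of that model, with 2 arrays a group. XY minus XX comparisons use the deposited values. The sorted-cell arrays and the gonad arrays appear to have been normalized apart, so sorted minus gonad differences use values less each array's median. On that scale the median over all probe sets was 0.19 for Sertoli minus testis and 0.13 for pre-granulosa minus ovary. In whole gonads, fewer cells of a type and less RNA per cell cannot be told apart.

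**Figure D1:**
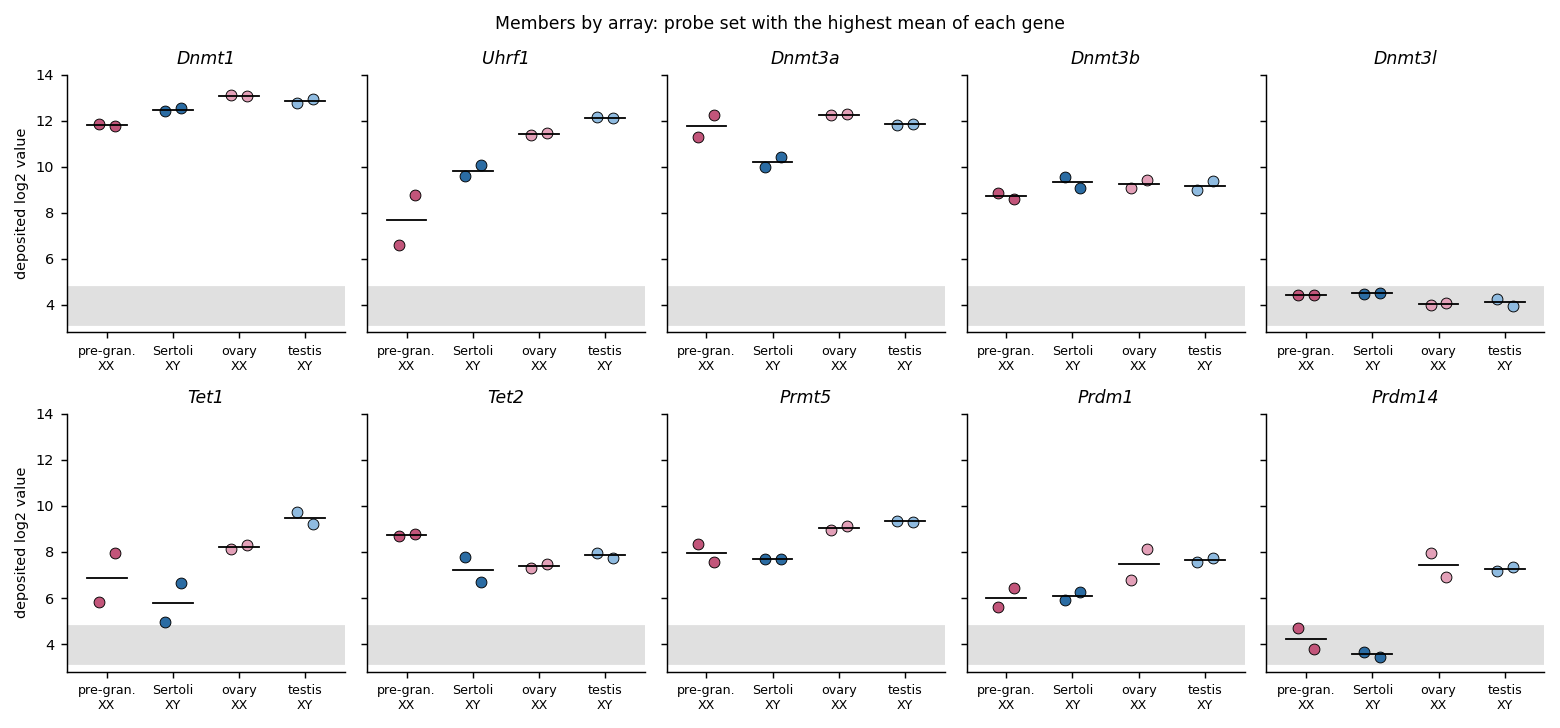
Deposited log2 value of each gene's probe set with the highest mean (vertical axis) on each of the 8 arrays, by group; points are arrays, lines the mean of 2, and the grey band the background level from 3.11 to 4.78. Prdm14 lies in the band on all 4 sorted-cell arrays and above 6.9 on all 4 gonad arrays, Dnmt3l lies in it throughout, and Uhrf1 spans 6.60 to 12.16.

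Among the maintenance genes, 1 Dnmt1 probe set was lower in pre-granulosa cells than in ovaries, and no difference between the sexes was called. On the Dnmt1 probe set with the highest mean (1435122_x_at, chromosome 9), the pre-granulosa arrays read 11.86 and 11.75, the Sertoli arrays 12.42 and 12.53, the ovary arrays 13.09 and 13.07, and the testis arrays 12.76 and 12.93. Both Sertoli arrays were thus above both pre-granulosa arrays, while both testis arrays were below both ovary arrays. Sertoli minus pre-granulosa was 0.68 ± 0.14 (95% interval 0.33 to 1.02, adjusted p 0.0513) and testis minus ovary was -0.24 ± 0.14 (adjusted p 0.746). The difference of these differences, 0.92 ± 0.20, was not called (adjusted p 0.162). A second probe set, 1447877_x_at, gave 0.78 ± 0.14 for Sertoli minus pre-granulosa (adjusted p 0.0319), which passes 0.05 and not 0.01. The third, 1422946_a_at, read 5.44 to 7.57 and gave 0.69 ± 0.29 (adjusted p 0.269).

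Against its organ, the Dnmt1 signal of pre-granulosa cells was 1.95-fold lower than in ovaries on 1447877_x_at (-0.96 ± 0.14, adjusted p 0.00884). The other two probe sets gave -0.90 ± 0.14 (adjusted p 0.0110) and -1.49 ± 0.29 (adjusted p 0.0198). Sertoli minus testis was 0.03 ± 0.14, 0.12 ± 0.14 and -0.57 ± 0.29 on the 3 probe sets, none of them called. The call on 1447877_x_at was lost when any 1 of the 8 arrays was left out (adjusted p 0.0155 to 0.0560).

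Uhrf1, which recognises half-methylated DNA and recruits DNMT1, had the widest range of the members. On 1415810_at (chromosome 17) the pre-granulosa arrays read 6.60 and 8.77, the Sertoli arrays 9.58 and 10.05, the ovary arrays 11.40 and 11.45, and the testis arrays 12.16 and 12.11. The 4 groups did not overlap, and the pre-granulosa arrays lay 2.17 log2 units apart. Sertoli minus pre-granulosa was 2.13 ± 0.64 (95% interval 0.57 to 3.69, adjusted p 0.137), and testis minus ovary was 0.71 ± 0.64 (adjusted p 0.891). The ovary arrays lay only 0.06 apart and the testis arrays 0.05, so the error of the gonad value comes mostly from the sorted arrays. Sorted minus gonad differences were -1.92 ± 0.65 for Sertoli cells (adjusted p 0.0733) and -3.36 ± 0.65 for pre-granulosa cells (adjusted p 0.0188). Without pre-granulosa replicate 2, Sertoli minus pre-granulosa was 3.21 and was called (adjusted p 0.00298), a comparison that then rests on the pre-granulosa array with the high 3′ excess. Without replicate 1, pre-granulosa minus ovary was -2.26 and was called (adjusted p 0.00625). The dimmer probe set, 1415811_at, read 5.16 to 6.58 and gave 0.35 ± 0.17 for Sertoli minus pre-granulosa (adjusted p 0.352).

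The partners of the maintenance step showed 1 called gene of 11 in pre-granulosa minus ovary, where 4.11% of all genes were called lower. They showed 0 in the other 4 comparisons, where at most 4.40% of all genes were called in 1 direction. Lig1, the ligase that joins newly made DNA, was lower in pre-granulosa cells than in ovaries (-1.15 ± 0.16, adjusted p 0.00814). Pcna, the replication clamp, gave -2.30 ± 0.44 in that comparison (adjusted p 0.0183), and Hells, a chromatin remodeller needed for methylation of repeats, gave 1.43 ± 0.63 for Sertoli minus pre-granulosa (adjusted p 0.299). All 11 partners had negative values in pre-granulosa minus ovary, with a median of -0.72, beside a median of -0.01 over all genes. Sertoli minus pre-granulosa was positive for 10 of 11, with a median of 0.43 beside 0.04 over all genes.

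Genes of S phase are given beside Dnmt1 and Uhrf1, whose transcripts are known to be made in cycling cells. Of 19 measured, 3 were higher in Sertoli than in pre-granulosa cells, beside 1.62% of all genes: Mcm7, a subunit of the replicative helicase, Gins1, a helicase cofactor (1.93 ± 0.23, adjusted p 0.00807), and Pole, the leading-strand polymerase. Mcm7 read 9.33 and 9.32 in pre-granulosa cells, 10.86 and 10.71 in Sertoli cells, 11.17 and 11.36 in ovaries, and 10.93 and 11.13 in testes. In pre-granulosa minus ovary 6 of 19 were lower, beside 4.11% of all genes, among them the licensing factor Cdc6 (-2.80 ± 0.38), Mcm2 (-2.42 ± 0.26) and Pole (-1.93 ± 0.20). Rrm2, a subunit of ribonucleotide reductase, and Ccne2, a cyclin of the G1 to S transition, gave -2.58 ± 0.78 and -2.56 ± 0.68 and were not called. In testis minus ovary 0 of 19 were called (0.352% of all genes), with a median of -0.02. In Sertoli minus testis 0 of 19 were called (4.40% of all genes lower and 2.47% higher), with a median of -0.09. The median Sertoli minus pre-granulosa difference of the S phase list was 1.29, with 18 of 19 values positive. The part of S phase content in the Dnmt1 and Uhrf1 values was not tested.

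Promoter windows from 250 bases before to 50 after each start, from RefSeq on GRCm38.p6, were matched for 9 members with 16 starts. They were searched on both strands for 4 spellings of the site that E2F factors of S phase genes bind, TTTCCCGC, TTTGGCGC, TTTCGCGC and TTTGCCGC, each of which holds a CpG and so is likelier in CpG-rich windows. Such letters stood in 2 of the 16 member windows, the third listed start of Dnmt1 and the second of Uhrf1, and in 744 of all 32851 windows (2.26%). The stretches are shown because they belong to the maintenance pair, on the strand of the gene with the matching letters in capitals, starting 219 bases before and 33 bases after that Dnmt1 start and 185 bases before that Uhrf1 start. The match is a description of letters and not of binding.
Dnmt1 (chr9:20952823-20952852, minus strand): gtttccgcgcGCGCGAAAaagccggggtct
Dnmt1 (chr9:20952574-20952600, minus strand): cggggcagcgTTTGGCGCgggctgtgc
Uhrf1 (chr17:56304118-56304147, plus strand): ccgagtcgggTTTCGCGCgcccaggcgtct

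Of the de novo methyltransferases, Dnmt3a was lower in the Sertoli group than in the pre-granulosa group on 1 of its 5 probe sets, and Dnmt3b was not called in any comparison. On 1423066_at (chromosome 12) the pre-granulosa arrays read 9.44 and 8.77, the Sertoli arrays 6.80 and 6.34, the ovary arrays 8.05 and 7.83, and the testis arrays 7.84 and 7.50. Both Sertoli arrays were below all other arrays and both pre-granulosa arrays above them. Sertoli minus pre-granulosa was -2.53 ± 0.29, a 5.79-fold lower signal (95% interval -3.23 to -1.84, adjusted p 0.00724). Testis minus ovary was -0.27 ± 0.29 (adjusted p 0.924). The difference of the differences was -2.26 ± 0.41, with the lowest adjusted p of any member probe set in that test (0.105). On this probe set the sex difference was thus not shown to differ between sorted cells and gonads.

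The 5 Dnmt3a probe sets, all designed from the same transcript sequence, did not read alike. Sertoli minus pre-granulosa was -2.47 ± 0.46 on 1423065_at (adjusted p 0.0350) and -1.58 ± 0.33 on 1423064_at (adjusted p 0.0482), but -0.20 ± 0.15 on 1423063_at (adjusted p 0.572) and -0.13 ± 0.26 on 1460324_at (adjusted p 0.867). On 1423064_at, the probe set with the highest mean, the arrays read 11.29 and 12.24 in pre-granulosa cells, 9.97 and 10.41 in Sertoli cells, 12.23 and 12.28 in ovaries, and 11.79 and 11.87 in testes. On 1423063_at the sorted arrays read only 9.29 to 9.65 and the gonad arrays 10.24 to 10.39. All 5 differences were negative, and their mean over probe sets, -1.38 ± 0.15, had an adjusted p of 0.00253. That mean blends probe sets that did not read alike. It comes from a separate limma fit of gene means, adjusted over 18193 genes and not over all probe sets. For the gonads the same mean was 0.04 ± 0.15 (adjusted p 0.966). The difference of these differences was -1.42 ± 0.21 (adjusted p 0.0378), which passes 0.05 and not the threshold of 0.01. The call on 1423066_at was lost without any 1 of 7 arrays (adjusted p 0.0130 to 0.0365), the exception being pre-granulosa replicate 2. Without pre-granulosa replicate 1, 1423064_at was called instead (-2.05, adjusted p 0.00967).

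Against the whole organ the Dnmt3a probe sets again separated. The Sertoli minus testis value was negative on all 5, from -0.65 to -1.50, with the lowest adjusted p, 0.0122, on 1460324_at. Pre-granulosa minus ovary was 1.54 ± 0.28 on 1423066_at (adjusted p 0.0163) and 1.18 ± 0.45 on 1423065_at (adjusted p 0.109), and -0.11 ± 0.33, -0.39 ± 0.15 and -0.68 ± 0.26 on the other 3. The choice of probe set thus turns the sign of the pre-granulosa value, and none of these values was called.

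**Figure D2:**
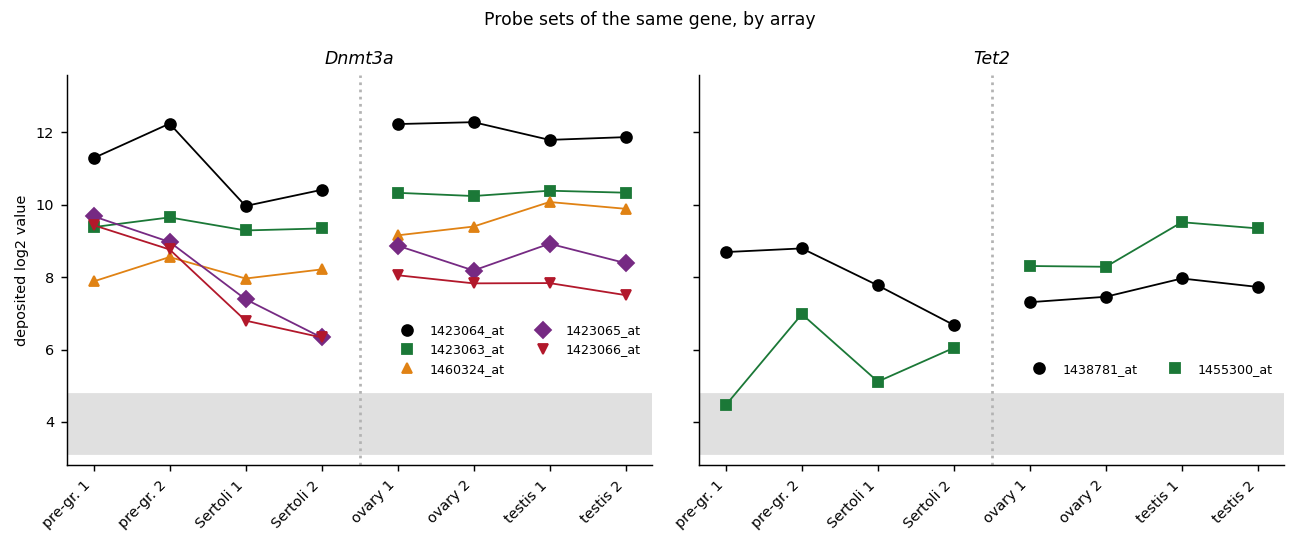
Deposited log2 value (vertical axis) on each array for the 5 Dnmt3a and the 2 Tet2 probe sets; lines join arrays of 1 set, the dotted line parts sorted cells from gonads, and the grey band is the background level. For Dnmt3a, 3 probe sets drop from pre-granulosa to Sertoli arrays and 2 stay level, and the Tet2 probe sets place the pre-granulosa arrays above the gonads in 1 case and below them in the other.

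Dnmt3b had the narrowest range of the 9 genes that rise above background, 0.98 log2 units on its brighter probe set. That probe set, 1449052_a_at (chromosome 2), read 8.85 and 8.58 in pre-granulosa cells, 9.56 and 9.09 in Sertoli cells, 9.09 and 9.41 in ovaries, and 8.99 and 9.37 in testes. Both Sertoli arrays were above both pre-granulosa arrays, and the ovary and testis arrays overlapped. Sertoli minus pre-granulosa was 0.61 ± 0.24 (adjusted p 0.249) and testis minus ovary -0.07 ± 0.24 (95% interval -0.66 to 0.52). The dim probe set 1418351_a_at read 5.03 to 5.70. Dnmt3l, whose protein stimulates DNMT3A in male germ cells, read 3.95 to 4.52 on the 8 arrays (1425035_s_at, chromosome 10), inside the background level. No fold is given for it, since both sides of every comparison lay at background.

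The promoter windows of the 3 DNMT3 genes are far apart in CpG content, the dinucleotide that these enzymes methylate. Per 300 bases, Dnmt3a windows held 46, 47 and 18 CpG at its 3 listed starts, the Dnmt3b window held 30, and Dnmt3l windows held 6, 4 and 3, beside a median of 7 over all windows. The 46 CpG of the first Dnmt3a start exceed the number in 98.4% of windows. The 250 bases before the first starts of Dnmt3a and of Dnmt3l are shown with CpG in capitals, and hold 38 and 5 of them. Sertoli minus pre-granulosa was called on 1 of the 5 Dnmt3a probe sets, and Dnmt3l was at background. No methylation was measured in these samples.
Dnmt3a (chr12:3806730-3806979, plus strand): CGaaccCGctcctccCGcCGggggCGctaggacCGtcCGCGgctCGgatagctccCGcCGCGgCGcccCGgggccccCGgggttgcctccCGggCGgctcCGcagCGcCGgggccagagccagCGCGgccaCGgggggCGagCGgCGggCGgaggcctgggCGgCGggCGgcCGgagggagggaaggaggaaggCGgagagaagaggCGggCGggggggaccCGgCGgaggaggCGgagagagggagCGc
Dnmt3l (chr10:78042037-78042286, plus strand): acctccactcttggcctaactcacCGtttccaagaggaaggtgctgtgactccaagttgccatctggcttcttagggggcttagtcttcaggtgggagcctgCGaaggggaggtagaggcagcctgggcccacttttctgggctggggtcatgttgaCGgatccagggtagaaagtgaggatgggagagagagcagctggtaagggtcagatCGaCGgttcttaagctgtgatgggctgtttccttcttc

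Neither TET gene was called in any comparison under the main settings. Tet1, the oxidase best known from germ cells and embryonic stem cells, read on 1455425_at (chromosome 10) 5.84 and 7.94 in pre-granulosa cells, 4.95 and 6.64 in Sertoli cells, 8.12 and 8.28 in ovaries, and 9.74 and 9.21 in testes. All 4 gonad arrays were above all 4 sorted-cell arrays as deposited, but less array medians the pre-granulosa and ovary arrays overlapped. Both testis arrays were above both ovary arrays, and the sorted groups overlapped. Sertoli minus testis was -3.28 ± 0.80 (adjusted p 0.0314), pre-granulosa minus ovary -0.93 ± 0.80 (adjusted p 0.419), and testis minus ovary 1.27 ± 0.79 (95% interval -0.65 to 3.20). A second probe set, 1429448_s_at, gave -1.34 ± 0.26 for Sertoli minus testis (adjusted p 0.0165) and -0.64 ± 0.26 for pre-granulosa minus ovary (adjusted p 0.119). The other two, 1419896_at and 1419897_at, read 3.65 to 5.27, close to background. Under other settings Sertoli minus testis was called on 1455425_at with array weights (adjusted p 0.00870). On 1429448_s_at it was called without taking off array medians (adjusted p 0.00715). The mean of all Tet1 probe sets, fitted apart and adjusted over genes, gave -1.32 ± 0.22 there (adjusted p 0.00776).

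Tet2 had probe sets that pointed opposite ways. On 1438781_at (chromosome 3) the pre-granulosa arrays read 8.69 and 8.80, the Sertoli arrays 7.77 and 6.68, the ovary arrays 7.31 and 7.46, and the testis arrays 7.96 and 7.73. The pre-granulosa arrays were the highest, and pre-granulosa minus ovary was 1.74 ± 0.34 (adjusted p 0.0198). On 1455300_at the same arrays read 4.47 and 6.98, 5.12 and 6.05, 8.31 and 8.29, and 9.52 and 9.35. There all gonad arrays lay above all sorted-cell arrays, and pre-granulosa minus ovary was -2.19 ± 0.78 (adjusted p 0.0901). Sertoli minus testis was -0.22 ± 0.34 on the first and -3.46 ± 0.78 on the second (adjusted p 0.0258), and Sertoli minus pre-granulosa was -1.52 ± 0.35 (adjusted p 0.0642) and -0.14 ± 0.77. Sertoli minus testis on 1455300_at was called with only the 4 arrays compared (adjusted p 0.00917) and with array weights (adjusted p 0.00477). Pre-granulosa replicate 1, with the high 3′ excess, was below replicate 2 by over 2 log2 units on 1455300_at, on Tet1 1455425_at and on Uhrf1 1415810_at. The part of RNA quality in these values was not tested.

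In the list of demethylation and base excision genes, 1 of 12 was higher and 1 lower in pre-granulosa cells than in ovaries, beside 1.29% and 4.11% of all genes. In the other 4 comparisons 0 were called, where at most 4.40% of all genes were called in 1 direction. Tet3, the TET oxidase best known from the egg, was higher in pre-granulosa cells (1.42 ± 0.19, adjusted p 0.00715), at 7.63 and 7.83 against 6.55 and 6.83. Smug1, a uracil glycosylase, was lower (-1.10 ± 0.14, adjusted p 0.00599). Gadd45a, a stress gene linked to demethylation, gave -1.97 ± 0.68 for Sertoli minus testis (adjusted p 0.0780), and the uracil glycosylase Ung gave 1.45 ± 0.44 for the difference of the sex differences (adjusted p 0.286). Among 6 readers of methylated CpG, Zbtb4 was lower in Sertoli cells than in their XX counterparts (-1.25 on the log2 scale), as were 1.05% of all genes, and higher in pre-granulosa cells than in ovaries (1.26 ± 0.13, adjusted p 0.00380), as were 1.29%. Its pre-granulosa arrays, at 11.28 and 11.23, stood above the other 6, at 9.79 to 10.42. The readers Zbtb33 (-1.23 ± 0.45, pre-granulosa minus ovary) and Mbd4, a thymine glycosylase (-1.12 ± 0.19, Sertoli minus testis, adjusted p 0.0118), were not called.

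Prmt5 was not called under the main settings either. Its probe set 1427439_s_at (chromosome 14) read 8.37 and 7.57 in pre-granulosa cells, 7.68 and 7.71 in Sertoli cells, 8.94 and 9.12 in ovaries, and 9.35 and 9.31 in testes. The sorted groups overlapped, and all gonad arrays were above them. Sertoli minus testis was -1.23 ± 0.26 (adjusted p 0.0212), pre-granulosa minus ovary -0.68 ± 0.26 (adjusted p 0.105), and testis minus ovary 0.30 ± 0.26 (95% interval -0.35 to 0.94). The Sertoli minus testis value was called without taking off array medians (adjusted p 0.00918) and with array weights (adjusted p 0.00544). Of 9 measured members of its complex and of the arginine methyltransferase family, 0 were called in the 5 comparisons. Of all genes, at most 4.40% were called in 1 direction in any of these. The lowest and highest values named by rule were Prmt1, the main asymmetric arginine methyltransferase, at -1.17 ± 0.26 for pre-granulosa minus ovary (adjusted p 0.0286), and Prmt2 at 1.43 ± 0.32 for Sertoli minus testis (adjusted p 0.0258).

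Prdm14 was lower in sorted cells than in gonads of both sexes, and Prdm1 was not called. Prdm14 (1444390_at, chromosome 1), a repressor of the methylation machinery in pluripotent and germ cells, read 4.69 and 3.78 in pre-granulosa cells, 3.67 and 3.43 in Sertoli cells, 7.94 and 6.92 in ovaries, and 7.17 and 7.34 in testes. The 4 sorted arrays were inside the background level and the 4 gonad arrays well above it. The fitted Sertoli minus testis value was -3.31 ± 0.42 (adjusted p 0.00553) and that of pre-granulosa minus ovary -2.81 ± 0.42 (adjusted p 0.00909). Since the sorted side has only a bound, the signal was at least 4.32-fold higher in testes and at least 4.83-fold higher in ovaries, taking the highest background value for sorted cells. Testis minus ovary was -0.18 ± 0.42 (95% interval -1.19 to 0.83). The Sertoli call was lost without either Sertoli or either testis array (adjusted p 0.0240 to 0.0516), and the pre-granulosa call without any 1 of the 8 arrays (adjusted p 0.0108 to 0.0424).

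Prdm1, the repressor of the somatic programme in germ cell precursors, read on 1420425_at (chromosome 10) 5.62 and 6.42 in pre-granulosa cells, 5.90 and 6.27 in Sertoli cells, 6.80 and 8.14 in ovaries, and 7.54 and 7.76 in testes. As deposited, all gonad arrays were above all sorted-cell arrays, which, unlike those of Prdm14, stayed above background. The ovary arrays lay 1.33 log2 units apart. The sorted minus gonad values were -1.17 ± 0.47 in XY (adjusted p 0.112) and -1.07 ± 0.47 in XX (adjusted p 0.149). Testis minus ovary was 0.18 ± 0.48 (95% interval -0.97 to 1.33).

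The network in which PRDM1 and PRDM14 act had 11 measured genes, and in each sorted minus gonad comparison 7 were lower and 1 higher, where 4.40% and 2.47% of all genes were so in XY and 4.11% and 1.29% in XX. All 7 lower genes are also on the germ cell marker list below, as is Tfap2c, so these lists are not separate evidence. For pre-granulosa minus ovary the lower genes included Sox2, at background in sorted cells and at least 27.2-fold higher in ovaries, Lin28a (-5.59 ± 0.33), Sall4 (-5.29 ± 0.47) and Nanog (-5.15 ± 0.14), all known from pluripotent cells. The Lin28a value has 1 of the 2 pre-granulosa arrays at background. Tfap2c, a direct partner in germ cell specification, gave -5.61 ± 1.03 (adjusted p 0.0163). Pou5f1 read 5.48 and 4.53 in pre-granulosa cells, 4.89 and 5.34 in Sertoli cells, 10.45 and 10.56 in ovaries, and 9.76 and 9.79 in testes. Klf4, which many somatic cells express too, was the gene called higher in sorted cells, at 8.82 to 9.22 against 7.78 to 8.01 in gonads, while Klf5 gave -1.13 ± 0.27 for pre-granulosa minus ovary (adjusted p 0.0338). In the XY minus XX comparisons 0 of 11 were called, beside 1.62% of all genes higher and 1.05% lower in sorted cells, and 0.352% called in gonads. Dppa3, which shields methylated DNA from oxidation in the egg and marks germ cells, was the called gene of 6 in the imprint protection list. It was lower in both sorted minus gonad comparisons, as were 4.40% of all genes in XY and 4.11% in XX. Its Sertoli minus testis value was -4.92 ± 0.21. Its arrays read 4.58 to 5.24 in sorted cells and 9.86 to 10.67 in gonads. In that list Zfp57, which keeps imprints methylated, gave 1.24 ± 0.21 for Sertoli minus pre-granulosa (adjusted p 0.0273) and Zfp568 gave -1.03 ± 0.25 for pre-granulosa minus ovary (adjusted p 0.0357).

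Of the 11 germ cell markers, 10 were lower in sorted cells in each sex, beside 4.40% of all genes in XY and 4.11% in XX. The list had medians of -4.43 for Sertoli minus testis and -5.29 for pre-granulosa minus ovary. With genes at background in sorted cells set to the highest background value, the medians were -4.39 and -5.15. Ddx4, a germ cell helicase, read 3.13 and 3.75 in pre-granulosa cells, 3.40 and 4.66 in Sertoli cells, and 10.62 to 10.89 in gonads. Of the 11, 5 were at background on both arrays of each sorted group. Tfap2c and Sall4 read 7.72 and 8.31 in Sertoli replicate 2, against 4.33 and 6.82 in replicate 1. The part of germ cell content in the lower Prdm14, Prdm1, Prmt5 and Tet1 values of sorted cells was not tested.

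Genes known to be kept silent in somatic cells by methylation of CpG-rich promoters are given as the known targets of these enzymes. This list shares Dazl and Ddx4 with the germ cell markers. Of 17 measured, 8 were lower in sorted cells than in gonads in each sex, beside 4.40% of all genes in XY and 4.11% in XX. The list had medians of -1.74 for Sertoli minus testis and -2.04 for pre-granulosa minus ovary, beside 0.10 and -0.01 over all genes. Set to the bound in the same way they were -1.51 and -1.33. The parts of germ cell content and of promoter methylation in the lower values of this list were not tested. Dazl, an RNA-binding protein of germ cells, read 4.05 and 4.05 in pre-granulosa cells, 4.15 and 4.33 in Sertoli cells, 11.47 and 11.12 in ovaries, and 11.59 and 11.16 in testes. Mael, a piRNA factor, was at 3.36 to 3.40 in sorted cells and 7.97 to 9.12 in gonads, and the kinase Stk31 at 3.80 to 4.60 and 8.23 to 9.23. Sorted cells were at background for Dazl, Mael and Stk31, so the fitted folds are not bounds and are not given. Slc25a31, a mitochondrial carrier of germ cells, read 6.94 in Sertoli replicate 2 and 3.32 to 3.80 on the other sorted arrays, and was not called in pre-granulosa minus ovary (adjusted p 0.0295). Brdt, a bromodomain gene of spermatogenesis, had the opposite sign (1.80 ± 0.30, adjusted p 0.0128).

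Sycp3, which encodes a protein of the synaptonemal complex, read 8.18 and 7.47 in pre-granulosa cells, 5.71 and 5.31 in Sertoli cells, 8.72 and 8.72 in ovaries, and 8.05 and 8.07 in testes. It was the 1 gene of 17 called in Sertoli minus pre-granulosa, where it was lower, as were 1.05% of all genes. Of the 17, 3 were above the background level on both pre-granulosa arrays: Sycp3, Brdt (6.57 and 6.44) and Mov10l1 (6.57 and 5.70). Tex101 and Taf7l were above it on 1 of the 2, and the others, Dazl, Mael and Stk31 among them, on neither. Sycp3, Brdt (6.70 and 5.77) and Mov10l1 (5.59 and 5.93) were above it on both Sertoli arrays as well, as was Tex101 (5.15 and 4.82).

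RefSeq promoter windows were matched for 16 of these 17 genes, and the 20 windows held 3 to 38 CpG, with a median of 21.5 beside 7 over all windows. The 250 bases before the first start of Dazl are shown as an example from a gene at background in sorted cells and high in gonads, with its 20 CpG in capitals.
Dazl (chr17:50293621-50293870, minus strand): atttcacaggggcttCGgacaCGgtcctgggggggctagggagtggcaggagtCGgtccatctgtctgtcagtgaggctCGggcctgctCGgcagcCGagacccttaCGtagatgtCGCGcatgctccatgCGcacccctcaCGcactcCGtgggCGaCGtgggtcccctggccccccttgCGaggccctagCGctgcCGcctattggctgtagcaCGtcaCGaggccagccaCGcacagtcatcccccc

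Between the sexes, calls among the members were few. In Sertoli minus pre-granulosa 1 of 22 probe sets was called lower, where 0.813% of all probe sets were called lower and 1.81% in either direction. At an adjusted p of 0.05 there were 4 of 22, beside 5.50% of all: those were 3 Dnmt3a probe sets and 1 of Dnmt1. The groups did not overlap for 7 probe sets in the higher and 9 in the lower direction, beside 20.9% and 20.5% of all probe sets, and for 6 and 7 once the 3 at background on all 4 sorted arrays (Dnmt3l, Prdm14 and Tet1 1419897_at) are left out. In testis minus ovary limma called 0 of 22 members, beside 0.215% of all probe sets. There 1 member, Dnmt3a 1460324_at (0.71 ± 0.26), had an unadjusted p under 0.05, beside 9.31% of all probe sets, and its adjusted p, 0.454, was the lowest. The groups did not overlap for 8 higher and 3 lower members, beside 23.0% and 27.0%. For the difference of the sex differences limma called 0 members and 0.00% of all probe sets, and 6 members had an unadjusted p under 0.05, beside 11.4%.

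**Figure D3:**
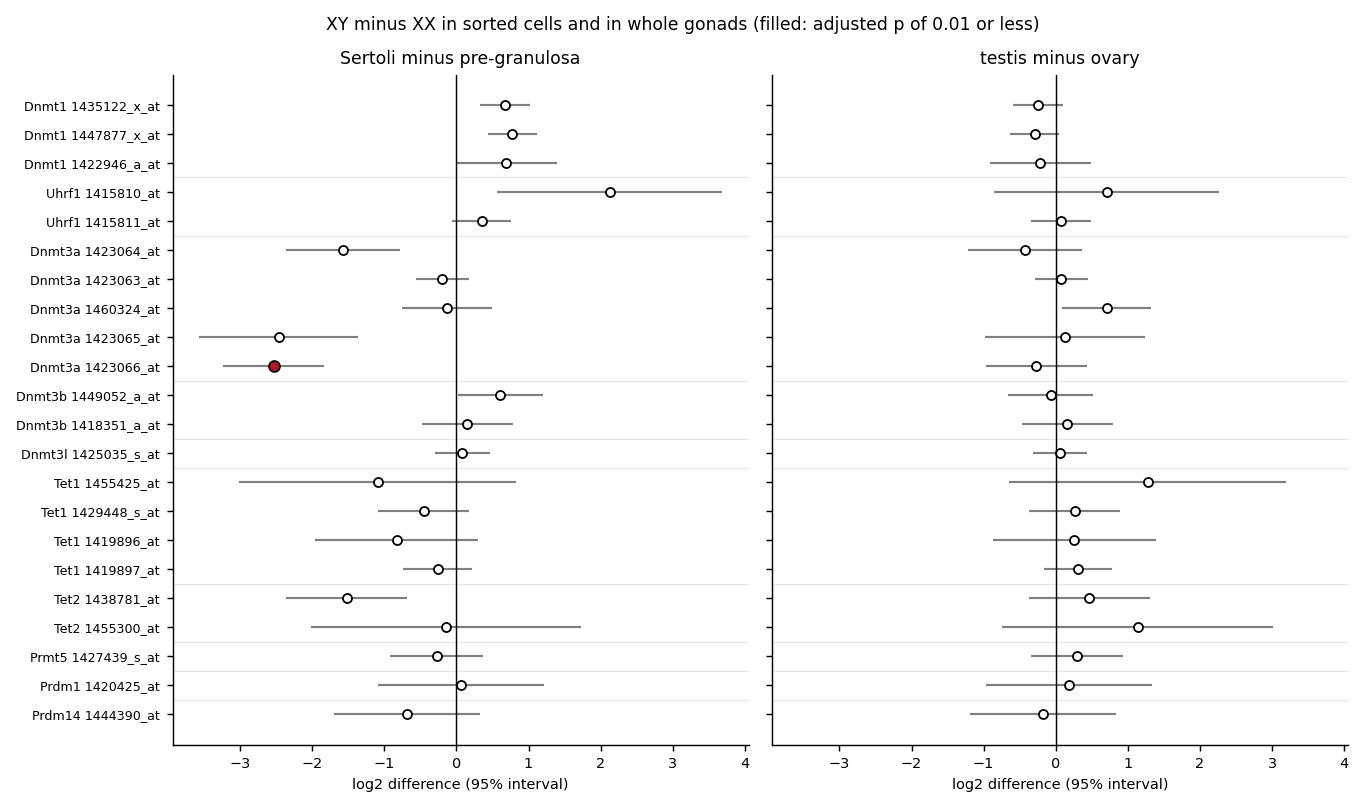
XY minus XX log2 difference (horizontal axis) of each of the 22 probe sets, in sorted cells (left) and whole gonads (right); bars are 95% intervals of the model and filled points are called. Dnmt3a 1423066_at at -2.53 is the filled point on the left, no point on the right is filled, and Tet1 1455425_at, Tet2 1455300_at and Uhrf1 1415810_at have the widest intervals.

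Against the whole organ, member values were negative for 17 of 22 probe sets in XY and 15 of 22 in XX. In Sertoli minus testis 1 of 22 was called lower and 0 higher, beside 3.73% and 2.97% of all probe sets, and in pre-granulosa minus ovary 2 were called lower and 0 higher, beside 3.08% and 2.43%. The medians over the 22 were -0.68 and -0.66, where those over all probe sets were 0.19 and 0.13. The groups did not overlap for 14 lower and 3 higher members in Sertoli minus testis, beside 28.0% and 46.8%, and for 12 lower and 5 higher members in pre-granulosa minus ovary, beside 26.4% and 39.9%. At an adjusted p of 0.05 there were 9 of 22 in each comparison, beside 25.9% and 22.0%. These counts include Dnmt3l, which lay at background on both sides; over the other 21 probe sets they were 8 in each, with 2 higher members in XY and 4 in XX whose groups did not overlap. Without centring on array medians 5 of 22 were called in each, beside 8.64% and 8.28% of all probe sets.

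**Figure D4:**
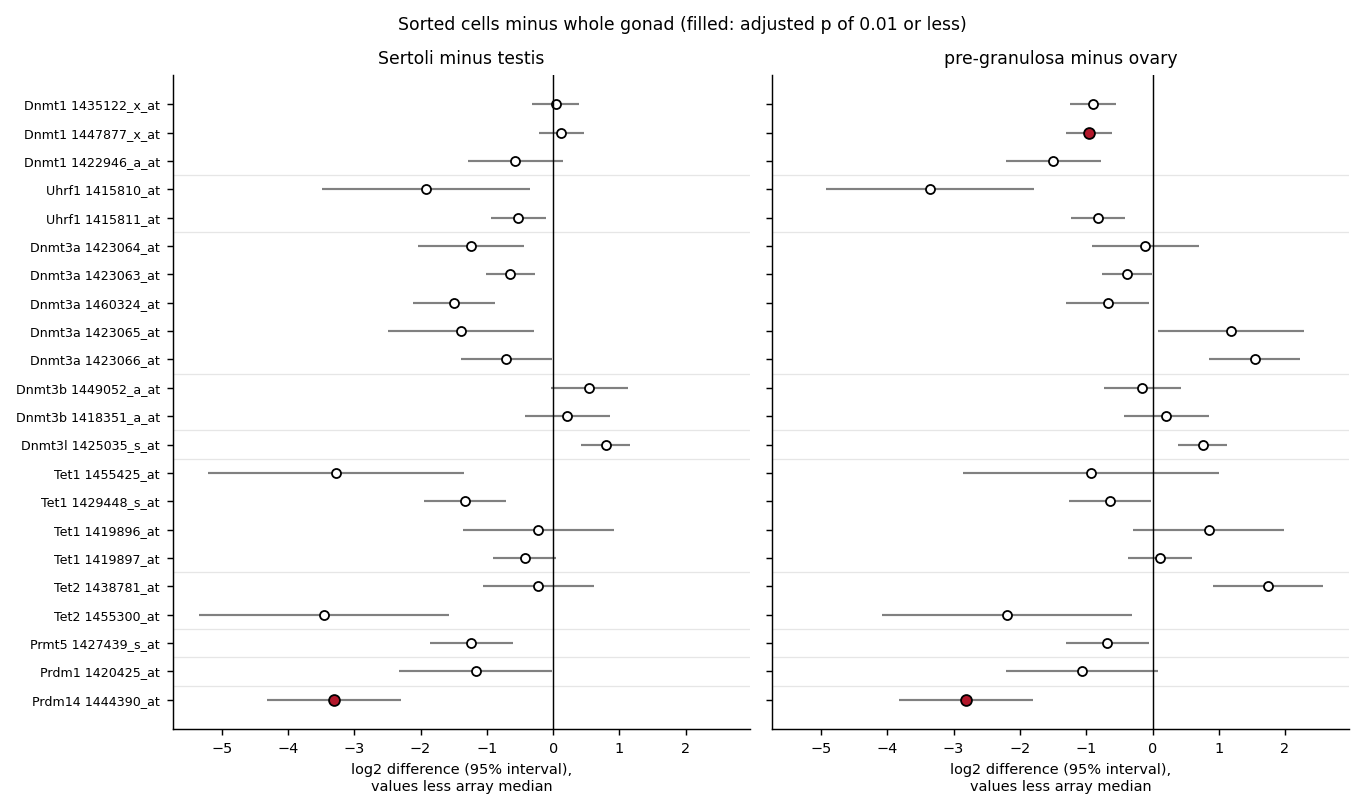
Sorted minus gonad log2 difference (horizontal axis, values less array medians) of each probe set, XY on the left and XX on the right, with 95% intervals; filled points are called. Prdm14 is filled on both sides at fitted values of -3.31 and -2.81, Dnmt1 1447877_x_at on the right at -0.96, and Dnmt3a and Tet2 have probe sets on both sides of 0 on the right.

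**Figure D5:**
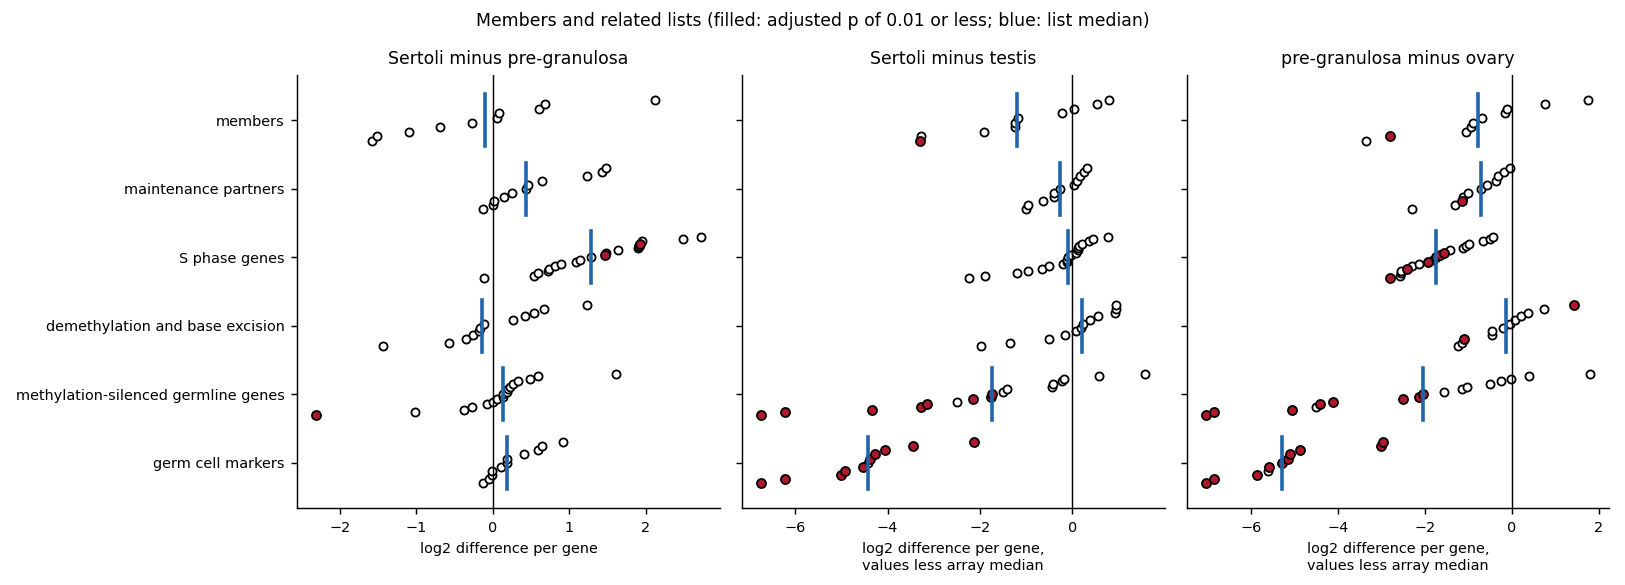
Log2 difference (horizontal axis) of each measured gene of the members and 5 related lists in 3 comparisons; filled points are called and blue bars are list medians. The S phase list lies to the right of 0 in Sertoli minus pre-granulosa (median 1.29), and the germ cell list far to the left in both sorted minus gonad panels (medians -4.43 and -5.29).

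For 8 members whose probe set ranged over at least 1 log2 unit, the genes with the most similar profile over the 8 arrays were found by the root mean square difference. For Dnmt1 they were Larp7 (0.080), Zswim4 (0.092) and Bcl7b (0.095), for Uhrf1 Fzd7 (0.26), Cd34 (0.28) and Suv39h2 (0.29), and for Dnmt3a Tpmt (0.16), Emx2 (0.17) and Slc1a4 (0.17). For Tet1 they were Mpped2 (0.37), Ghr (0.38) and Smim10l1 (0.41), and for Tet2 Sfxn4 (0.19), Rpp40 (0.19) and Ccdc173 (0.20). The genes nearest to Prmt5 were Tspan9 (0.11), Ddah2 (0.13) and Psd2 (0.16), to Prdm1 Napg (0.22), Stoml2 (0.25) and Leng8 (0.27), and to Prdm14 Hbb-y (0.31), Emp1 (0.34) and Tmem204 (0.35). These distances are in log2 units over 8 arrays and carry no test.

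Other cell types differed between the groups as well. Of 8 macrophage markers C1qb was higher in Sertoli than in pre-granulosa cells (4.49 ± 0.45, adjusted p 0.00504), as were 1.62% of all genes, and the list mean was 5.66 and 6.96 in the Sertoli arrays and 4.61 to 4.83 in the pre-granulosa arrays. Csf1r read 6.54 and 10.86 in the 2 Sertoli arrays, and neither it (5.67 ± 1.89) nor C1qa (2.14 ± 1.12) was called in the difference of the sex differences. Of 7 endothelial markers Robo4 was at least 5.17-fold higher in Sertoli cells, its pre-granulosa arrays being at background (adjusted p 0.00842), and 2 were lower in pre-granulosa cells than in ovaries, beside 4.11% of all genes, among them Kdr (-2.04 ± 0.13, adjusted p 0.00131), and the list mean was 4.90 to 5.55 in pre-granulosa, 5.96 to 6.40 in Sertoli and 7.44 to 7.77 in gonad arrays. Of 4 Leydig markers 3 were higher in testes than in ovaries, beside 0.236% of all genes, among them Cyp17a1 (6.07 ± 0.47), and their mean in Sertoli arrays was 8.23 and 9.39, beside 11.1 to 11.4 in testes. Of 5 erythroid markers 2 were lower in Sertoli cells than in testes, beside 4.40% of all genes, among them Hbb-y (-3.32 ± 0.40), and the list mean was 5.94 to 6.70 in sorted and 7.87 to 8.15 in gonad arrays. The part of these cells in the members' differences was not tested.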

How the data were processed

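Per the submitters' processing notes, RMA, given with no version, made the deposited values, which the authors left on the log2 scale; other steps are not given in the sources used here. The ranked values differed by at most 0.18 within the sorted-cell arrays and 0.15 within the gonad arrays, and by a median of 0.38 between these sets, so they appear to have been normalized apart. The table held 45101 probe sets, 64 of them array controls, which were left out. Of the rest 34945 had 1 gene symbol in the platform annotation, 932 several and 9160 none.

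limma 3.58.1 in R 4.3.3 fitted 1 mean per group over all 8 arrays (lmFit, 4 residual degrees of freedom; eBayes, 2.20 prior degrees of freedom). Tests were two-sided, adjusted over 45037 probe sets and called at 0.01, the false discovery rate the series text gives for the authors' own test with R/maanova, which was not used here. Sorted minus gonad comparisons used values less array medians. A gene in a list is its probe set with the highest mean. Means over all probe sets of a gene were fitted apart and adjusted over 18193 genes. The precision is limited by 2 arrays a group. The fit was tested on simulated data. Figures were drawn with matplotlib from values handled in pandas and numpy.

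The members and lists were chosen with earlier results of these data known, and lists are described by counts and medians only. All member probe sets are described, and from each list up to 4 called and 2 not called genes with the largest differences are named, plus fixed markers. List members with no probe set of their own were not used here. Correlations of the deviations of same-numbered samples were -0.16 to 0.05, so replicate numbers were not taken to pair the samples.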

Additional observations from a re-analysis of the deposited data

How the results depend on the processing

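No sign turned among called values. Over 1818 values of single member probe sets under other settings, 42 lost a call and 33 gained one. A further 19 uncalled values changed sign by a shift of at least 1 standard error. The remaining 1724 kept their side of the threshold. Uncalled values among those may have changed sign, by a shift under 1 standard error. The number of member probe sets called was, for Sertoli minus pre-granulosa (1), 0 with no moderation, with array weights and with only the 4 arrays compared, 4 at an adjusted p of 0.05, and 0 to 2 when 1 array was left out. For Sertoli minus testis (1) it was 5 without centring and with array weights, 2 with trend and robust moderation and with only the 4 arrays, 0 with no moderation and with a mean of at least 6 required, which removes Prdm14, 9 at 0.05, and 0 to 6 with 1 array left out. For pre-granulosa minus ovary (2) it was 1 with either quantile normalization, 5 without centring, 0 with a mean of at least 6, no moderation, array weights or only the 4 arrays, 9 at 0.05, and 0 to 3 with 1 array left out. For testis minus ovary and the difference of the sex differences it was 0 under every setting run. With the mean of all probe sets of a gene, 1 gene (Dnmt3a), 3 genes (Dnmt3a, Tet1 and Prdm14) and 3 genes (Dnmt1, Uhrf1 and Prdm14) were called in the first 3 of these comparisons, against 0, 1 and 1. Causes were not tested, and where an array is left out its partner is assumed to vary like the other groups.

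With the replicate block, which the data did not show to pair the samples, 2 member probe sets were called in Sertoli minus pre-granulosa, Dnmt3a 1423066_at and 1423065_at, 1 in Sertoli minus testis, and 0 in pre-granulosa minus ovary, testis minus ovary and the difference of the sex differences.

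With 2 arrays a group, calls depended on the standard error of a difference as well as on its size. Called members above background on both sides differed by -0.96 (Dnmt1) and -2.53 (Dnmt3a) log2 units. Values of -3.28 to -3.46 on Uhrf1, Tet1 and Tet2 probe sets, with standard errors of 0.65 to 0.80, were not called under the main settings. Dnmt3l, and Prdm14 in sorted cells, lie at background, where the array gives no lower reading.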

Other observations

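Of 9 other PRDM genes measured, 0 were called in the 5 comparisons, where at most 4.40% of all genes were called in 1 direction. Prdm8 lay at background on all 8 arrays and Prdm9 on all but 1 ovary array, which read 4.87. Over the genes above background on at least 1 array compared, Sertoli minus testis was positive for 5 of 7 (median 0.11) and pre-granulosa minus ovary for 6 of 8 (median 0.40), and Prdm4 and Prdm10 were the negative genes in both. Whether these genes differ from Prdm1 and Prdm14 was not tested. Prdm10 read 7.83 and 5.52 in Sertoli cells and 9.09 and 9.15 in testes (-2.05 ± 0.75, adjusted p 0.0907). Prdm6, a repressor known from smooth muscle, read 7.12 and 8.09 in pre-granulosa cells and 5.45 and 6.08 in Sertoli cells (-1.84 ± 0.36, adjusted p 0.0404). Prdm9, which marks meiotic recombination sites, read 4.22 to 4.87 over the 8 arrays and Prdm8 3.25 to 3.57, both near the background level.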
